A study of Homo sapiens with 47 samples.

Results

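The hnRNP, SR and SF3 genes were examined in single human breast cancer cells. They were the protein-coding genes of the deposited table whose symbols begin with HNRNP, or read SRSF, SF3A or SF3B followed by a number, which gave 45 of the 25739 genes in the table. The set held 25 hnRNP genes, 11 SR genes and 9 SF3 genes. GENCODE release 44 annotates 48 such genes, and HNRNPA1L2, HNRNPCL4 and SRSF12 had no row. The cells were 37 circulating tumor cells (CTCs) and 6 cells from culture. All were of MDA-MB-231-LM2 (LM2), a lung-metastatic derivative of the triple-negative breast cancer line MDA-MB-231, labelled with GFP. Tumors were grown from LM2 cells injected into the mammary fat pad of young adult NOD/SCID gamma (NSG) mice, which lack mature T, B and NK cells. CTCs were enriched from terminal blood by size and picked one at a time by their GFP signal. The names of the libraries assigned 2 CTCs to mouse 5541, 4 to mouse 5542, 10 to mouse 5545, 17 to mouse 5546 and 4 to mouse 5549. A mouse was treated as a replicate, and the 6 cultured cells, which received no treatment, as 1 sample.

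Splicing removes introns from pre-mRNA. hnRNP proteins coat nascent transcripts and often repress the use of nearby exons. SR proteins carry a domain rich in arginine and serine, bind exonic enhancers and recruit the splicing machinery. SF3A and SF3B proteins belong to the U2 snRNP, which recognizes the branch point of the intron. These factors are expressed in all cell types, and their balance is known to shape exon choice in tumor cells.

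Reads on genes ranged from 469614 to 2041333 per CTC (median 1257540) and from 776949 to 1186197 per cultured cell. The mitochondrial share of reads ranged from 4.28% to 23.9% in CTCs and from 4.05% to 5.74% in cultured cells. VIM and CD44, which mark the mesenchymal state of LM2, were detected in 37 of 37 CTCs and 6 of 6 cultured cells. The epithelial keratins KRT8 and KRT18 were likewise detected in 37 CTCs and 6 cultured cells. KRT19 was detected in 31 CTCs and 6 cultured cells, and EPCAM in 8 CTCs and 5 cultured cells. The cadherins CDH1 and CDH2 were detected in 1 CTC each. HBB was detected in 35 of 37 CTCs and in 0 of 6 cultured cells, and the 4 erythroid markers with a row took 0% to 1.59% of the reads of a CTC and 0% in culture. The leukocyte gene PTPRC was detected in 11 CTCs and in 0 cultured cells. The 6 leukocyte markers with a row took at most 0.0501% of the reads of a CTC. The part of these other cell types in the results below was not tested.

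Most members were detected in nearly every cell. A gene was counted as detected with 1 read or more. A CTC held a median of 39 of the 45 members (range 14 to 42), and a cultured cell a median of 40.5 (range 39 to 42). When every cell was thinned to 469614 reads, the medians were 38 and 40. SF3B6, HNRNPA1, HNRNPC, HNRNPA2B1, HNRNPH1, HNRNPF, HNRNPD, HNRNPU and HNRNPA3 were detected in all 37 CTCs, 9 of 45 members, as were 6.04% of the 7588 genes that passed the filter on low values. In total 32 members were detected in at least 33 CTCs, against 25.6% of those genes. The filter was a mean of at least 8 over the 6 samples, and detection rises with level, so these shares describe how abundant the members were.

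Of the 45 members, 4 were detected in under 10 CTCs. HNRNPCL1, HNRNPCL2 and HNRNPCL3, relatives of HNRNPC, were detected in 6, 2 and 1 CTCs and in none of the cultured cells. HNRNPUL2 was detected in 16 CTCs. HNRNPUL2-BSCL2, a read-through gene, was detected in 0 CTCs and 2 cultured cells, and 98.1% of the 75-base words of its transcript occur in other genes. Above these, SF3A2 was detected in 25 CTCs, SRSF8 and SF3B3 in 27 each, SF3A1 in 28 and HNRNPLL in 29. HNRNPCL3 shared 88.5% of its 75-base words with other genes. Members detected in most CTCs shared sequence as well: HNRNPA1L3, detected in 35 CTCs, shared 43.8% and HNRNPL, detected in 36, shared 32.2%. SF3A2, SF3B3, SF3A1 and HNRNPLL shared 0%. The study counted only reads with a unique alignment, so values of genes with shared sequence are uncertain.

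**Figure D1:**
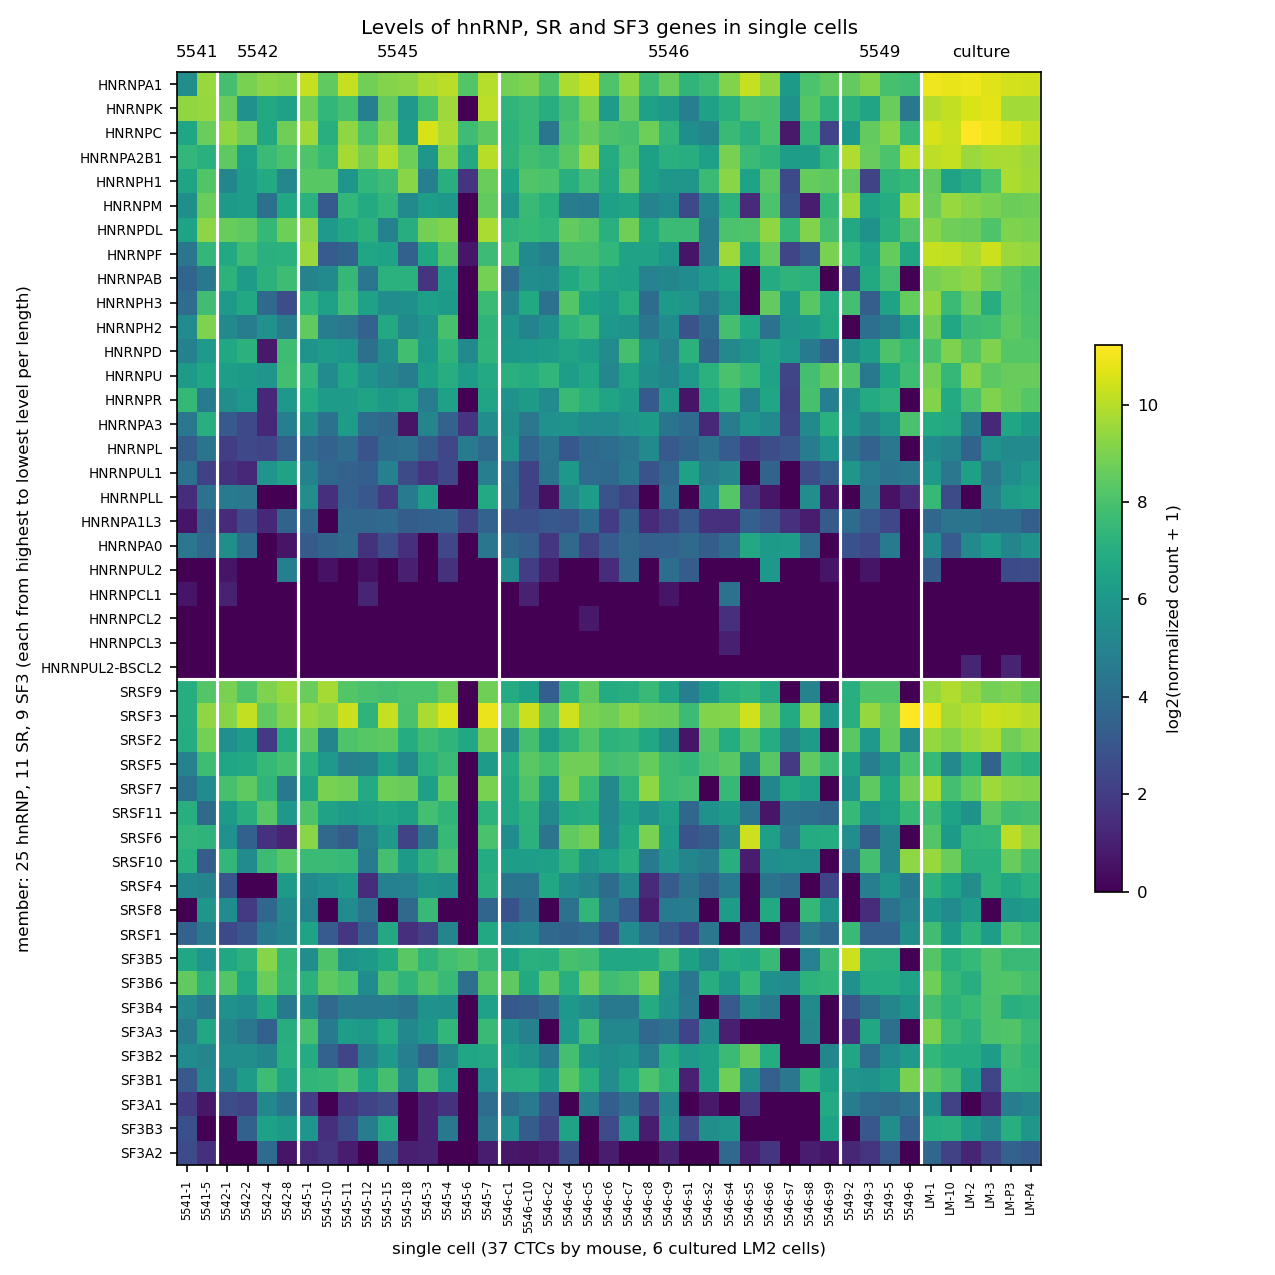
Heat map of log2(normalized count + 1) for the 45 members (rows, by family and then by level per length) in 37 CTCs ordered by mouse and in 6 cultured LM2 cells (columns). Most rows are filled in every cell, HNRNPCL1, HNRNPCL2, HNRNPCL3 and HNRNPUL2-BSCL2 are nearly empty, and 1 CTC of mouse 5545 stands out with 14 members detected.

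The number of members detected followed the number of genes detected in the cell. Across the 37 CTCs, Spearman's rho between the numbers was 0.77, and it was 0.68 over the 10 CTCs of mouse 5545. The points share library and depth, so these values are descriptions. The libraries of mouse 5546 carry the letter c or s in their names, which the sources used here do not explain. The 9 c libraries held a median of 40 members and 9281 genes, and the 8 s libraries a median of 36 members and 5976 genes. The lowest CTC, library 5545-6, held 14 members and 2227 genes.

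**Figure D2:**
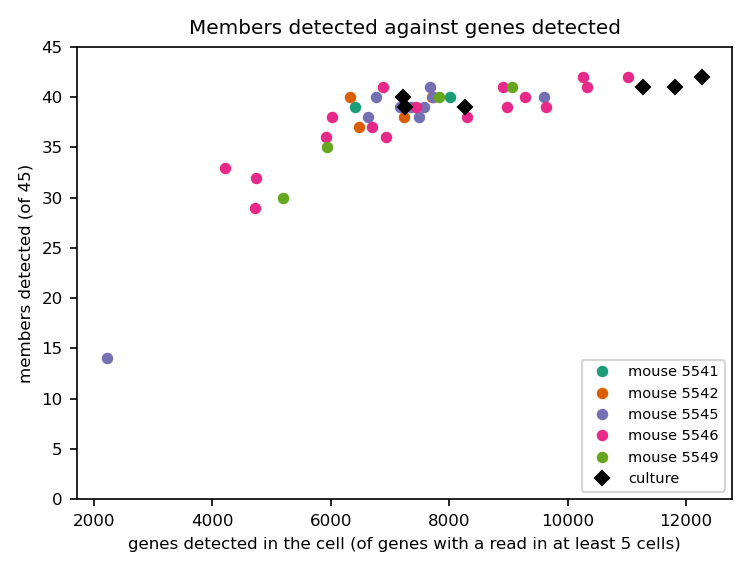
Members detected (of 45, vertical axis) against genes detected (horizontal axis, of genes with a read in at least 5 cells) for each CTC, colored by mouse, and each cultured cell (black diamonds). The CTCs with the most genes held up to 42 members, and 1 CTC of mouse 5545 lies apart at 14.

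The members together took a smaller share of the reads in CTCs than in culture, and the median gene was lower as well. With reads divided by the total of the cell, the median log2 difference was −0.69 over the 7588 genes tested. It was −1.02 over the 38 members tested. In mice 5541, 5542, 5545, 5546 and 5549 the mean share was 0.603%, 0.614%, 0.691%, 0.610% and 0.789%, or 0.662% ± 0.0798 (SD, n = 5 mice). In cultured cells it ran from 1.06% to 1.35% with a mean of 1.17%, which was 1.77 times the mean of mice. Each of the 37 CTCs lay below each of the 6 cultured cells. The exact permutation test over the 6 samples (two-sided) gave p = 0.1667, the smallest value that 5 mice and 1 culture allow, so the design could not reach 0.05 (Benjamini-Hochberg adjusted over 4 shares, 0.2222).

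By family, the hnRNP genes stood farthest from the culture. With reads divided by the total of the cell, the median log2 difference was −1.13 for hnRNP, −0.73 for SR and −0.44 for SF3 genes. That of all genes tested was −0.69. The hnRNP genes took 0.370%, 0.291%, 0.376%, 0.324% and 0.422% of the reads in mice 5541, 5542, 5545, 5546 and 5549, and 0.755% in culture. This was 2.12 times the mean of mice, and 37 of 37 CTCs lay below every cultured cell (exact permutation p = 0.1667, adjusted 0.2222). The SR genes took 0.172%, 0.235%, 0.238%, 0.203% and 0.259%, against 0.320% in culture, 1.45 times the mean of mice. For SR genes 24 of 37 CTCs lay below every cultured cell, and the groups of cells overlapped (exact permutation p = 0.1667, adjusted 0.2222). The SF3 genes took 0.0613%, 0.0892%, 0.0779%, 0.0833% and 0.109%, against 0.0965% in culture, so mouse 5549 lay above the culture and the other mice below it (exact permutation p = 0.5). The ratio of the hnRNP to the SF3 share, a value added after the data had been seen, was 6.03, 3.26, 4.83, 3.89 and 3.87 in the 5 mice and 7.82 in culture. All 5 mice were below the culture in this ratio.

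**Figure D3:**
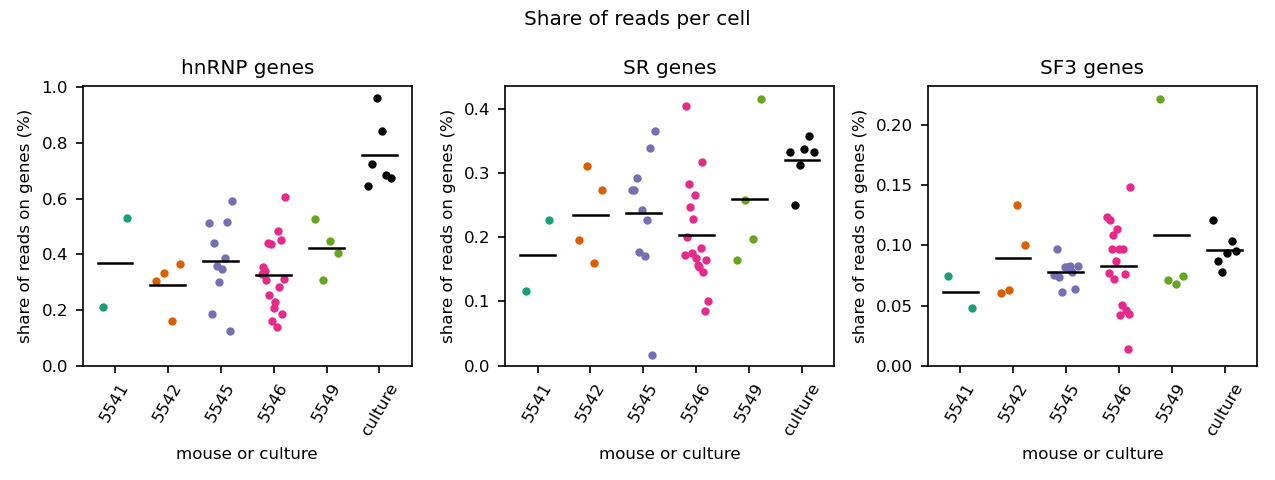
Share of reads on genes (percent, vertical axes from 0) taken by hnRNP, SR and SF3 genes in each cell, by mouse and in culture. Points are cells and lines are means; the 37 CTCs lie below the 6 cultured cells for hnRNP genes, and the ranges overlap for SR and SF3 genes.

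The summed share was set beside measures of the cell. Across the 37 CTCs, Spearman's rho of the summed share with genes detected was 0.01, and with the mitochondrial share −0.02. The hnRNP and SR shares had a rho of 0.31, and the hnRNP and SF3 shares 0.17. Within mouse 5545 the hnRNP and SR shares had a rho of 0.79 over 10 CTCs, and 0.77 by Pearson's r. Library 5545-6, the lowest for both, is among these 10. Within mouse 5546 the same rho was 0.27 over the 9 c libraries and 0.10 over the 8 s libraries.

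The reads of the set were spread over many genes. The 5 largest members held 37.9% to 45.3% of the normalized counts of all members in the 5 mice and 41.8% in culture. SRSF3, the smallest SR protein and a regulator of splicing and mRNA export, was the largest in 4 mice, with 12.0% to 14.6%. HNRNPK led in mouse 5541 with 13.3%. HNRNPA1 led in culture with 10.7%. By cell, HNRNPA1 was the highest hnRNP gene in 22 of 37 CTCs and in 3 of 6 cultured cells, and HNRNPC in 4 CTCs and the other 3 cultured cells. SRSF3 was the highest SR gene in 26 of 37 CTCs and 5 of 6 cultured cells. These counts were not divided by the length of the transcript, and division by length changed the leading genes. Per length, SRSF9 was the highest SR gene in 14 CTCs and 5 cultured cells, and SRSF3 in 9 CTCs. HNRNPA1 was then the highest hnRNP gene in 15 CTCs and 2 cultured cells, and HNRNPC in 6 CTCs and 4 cultured cells.

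Levels of different genes were compared per length, as TPM, here the reads per kilobase of the canonical transcript scaled to the same total in every cell. By TPM, SF3B5, a small SF3B subunit, was at rank 1 in CTCs with 208, 525.7, 382, 337 and 1183 in mice 5541, 5542, 5545, 5546 and 5549, against 362 in culture. This rank rested on library 5549-2: without it, an alternative chosen after seeing the data, SF3B5 had 258 in mouse 5549 and was at rank 3, behind SF3B6 and SRSF9. SF3B6, which contacts the branch point adenosine, was at rank 2 with 708, 556, 443, 540 and 267, against 455 in culture. SRSF9 was at rank 3 with 313, 683, 436, 149 and 284, against 638 in culture, where it was at rank 1. For SRSF9, 46.7% of the exonic bases overlap GATC and NRAV, and the counts ignored strand. SRSF3 was at rank 4 with 259 ± 74.2 (SD, n = 5 mice), HNRNPA1 at rank 5 with 214 ± 54.4, HNRNPK at rank 6 with 176 ± 134 and HNRNPC at rank 7 with 171 ± 61.1. For all 37 pairs of neighbours in the order of the 38 members above the filter, the ranges over the 5 mice overlapped, so no neighbours differed beyond their spread.

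The order of the members was close in CTCs and in culture. Over the 38 members above the filter, Spearman's rho between the level per length in CTCs and in culture was 0.93. The largest shift was that of SRSF5, at rank 9 in CTCs and 22 in culture. HNRNPF was at rank 15 in CTCs and 6 in culture, and SF3B5 at 1 and 8, or at 3 in CTCs without library 5549-2. Between the level per length and the length of the transcript, rho was −0.63 over these members and −0.68 over 7581 of the genes tested.

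Expression of single members was compared between the mice and the culture on the values as the authors normalized them, on the scale log2(mean normalized count + 1). On this scale most genes were lower in CTCs, with a median log2 difference of −1.40 over the 7588 genes tested. By mouse the median gene differed from the culture by −1.15 (mouse 5545) to −1.63 (mouse 5549). The summed normalized counts of a cell ran from 442223 to 1169174 in CTCs and from 1161997 to 1783225 in culture. For single genes below, counts of CTCs under every cultured cell are on this scale, without a share over all genes. The members had a median of −1.75, or −0.34 relative to the median gene. The median was −1.82 for the 19 hnRNP genes tested, −1.45 for the 11 SR genes and −1.21 for the 8 SF3 genes. Relative to the median gene these were −0.42, −0.05 and 0.20. With CPM scaling, in which reads are divided by the total of the cell, the medians were −0.69 for all genes tested and −1.02 for the members.

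No member passed the test. Limma with Benjamini-Hochberg adjustment called 0 of 38 members at an adjusted p under 0.05, against 0.0132% of all genes tested, and the lowest adjusted p of a member was 0.476. At an unadjusted p under 0.05, 12 of 38 members were lower in CTCs, against 8.57% of all genes tested in that direction. After each sample was centred on its median gene, 0 members had an unadjusted p under 0.05, against 2.65% of all genes, and edgeR on summed reads gave 0 as well, against 2.35%. By a rule of size without a test, in which each of the 5 mouse means lay at least 2-fold from the culture in 1 direction, 13 of 38 members were lower, against 22.1% of all genes, and 0 higher, against 0.303%. The 13 were 7 of 19 hnRNP, 3 of 11 SR and 3 of 8 SF3 genes. After centring, 0 members met this rule, against 2.16% of all genes lower and 2.07% higher. With CPM scaling 4 members met it, all lower, against 6.92% of all genes. The 7 members not tested, with means under 8, were HNRNPA1L3, HNRNPCL1, HNRNPCL2, HNRNPCL3, HNRNPUL2, HNRNPUL2-BSCL2 and SF3A2.

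Relative to the median gene, members lay on both sides. After centring, 26 of 38 members had a difference below 0, against 51.8% of all genes, and these were 16 of 19 hnRNP, 7 of 11 SR and 3 of 8 SF3 genes. HNRNPA1, HNRNPC, HNRNPF, HNRNPAB, HNRNPR, SRSF4, SF3B4 and SF3A3 lay below the median gene of the mouse in all 5 mice, 8 of 38 members against 13.9% of all genes. SRSF5, HNRNPDL, SF3B5 and SF3B6 lay above it in all 5, which was 4 members against 14.6% of all genes. Some of these values were almost at the median gene: HNRNPDL had 0.0008 in mouse 5549, SF3B5 0.056 in mouse 5541 and HNRNPA1 −0.009 in mouse 5545. By mouse, 23, 24, 25, 23 and 17 of the 38 members lay below the median gene in mice 5541, 5542, 5545, 5546 and 5549.

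**Figure D4:**
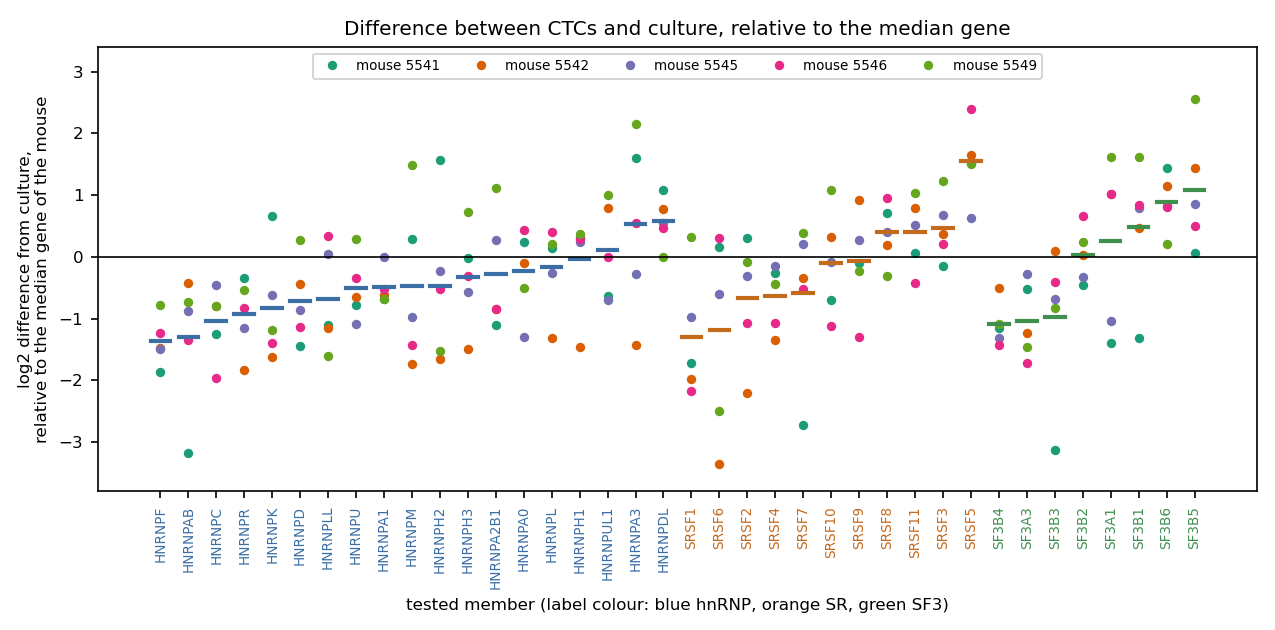
log2 difference from culture of the 38 members above the filter, relative to the median gene of the same mouse (vertical axis, 0 is the median gene), with 1 point per mouse. Bars mark the difference fitted after each sample was centred on its median gene; 16 of 19 hnRNP bars and 3 of 8 SF3 bars lie below 0, and the mice scatter widely for most genes.

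Among the hnRNP genes, HNRNPF showed the smallest p. hnRNP F binds runs of guanines and regulates exon inclusion. Its mean normalized count was 97.1, 152, 157, 174 and 185 in mice 5541, 5542, 5545, 5546 and 5549, and 665 to 1329 in cultured cells (median 1002). The mice lay close together. They lay below the culture by the 2-fold rule through which HNRNPF and HNRNPC were named. On the authors' scale, on which the median gene was also lower, 35 of 37 CTCs lay below every cultured cell for HNRNPF. The log2 difference of HNRNPF was −2.72 ± 0.71 (SE, limma adjusted p = 0.476), and −1.36 ± 0.70 after centring. HNRNPC, which binds runs of uridines and guards against the use of cryptic exons, had means of 248, 405, 537, 173 and 302 in the mice and 1180 to 2384 in cultured cells (median 1521). Its log2 difference was −2.40 ± 0.71 (SE), and −1.04 ± 0.68 after centring. On the same scale 36 of 37 CTCs lay below every cultured cell for HNRNPC.

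HNRNPA1, an exon silencer that antagonizes SR proteins, was the highest hnRNP gene. Its means were 385, 479, 763, 495 and 343 in the mice, and 1354 to 2035 in cultured cells (median 1739). On the authors' scale, on which the median gene was also lower, all 37 CTCs lay below every cultured cell. The log2 difference was −1.85 ± 0.63 (SE), and −0.49 ± 0.57 after centring, so most of it was shared with the median gene. HNRNPA1 lies at chr12:54280193-54287088 on the plus strand of GRCh38, and 29.8% of the 75-base words of its canonical transcript also occur in 22 other genes, of which 17 are pseudogenes. HNRNPA1L3, a retrogene copy that is itself a member, aligned with HNRNPA1 over 1360 bases at 99.3% identity. HNRNPA1L3 had means of 4.81, 4.59, 9.46, 5.78 and 6.69 in the mice and 15.0 in culture. The rows of 34 annotated HNRNPA1 pseudogenes held 182 reads over all 43 cells, 0.493% of the reads of HNRNPA1.

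HNRNPK, HNRNPAB, HNRNPD, HNRNPR and HNRNPU had lower means in all 5 mice than in culture on the authors' scale. HNRNPK, a binder of cytosine-rich RNA, had means of 672, 164, 342, 183 and 165 in the mice and 1168 in culture. Mouse 5541 was the highest and came nearest to the culture, and both of its cells were high. HNRNPAB had means of 17.1, 145, 110, 73.3 and 87.2, and 452 in culture, with mouse 5541 the lowest. After centring, the log2 difference was −0.82 ± 0.83 (SE) for HNRNPK and −1.30 ± 0.99 for HNRNPAB. HNRNPD, also called AUF1, binds AU-rich elements and promotes mRNA decay, and had means of 48.1, 116, 90.2, 68.4 and 144, against 367 in culture. HNRNPR had means of 101, 42.5, 71.1, 82.5 and 78.9, against 357 in culture. HNRNPU, which attaches chromatin to the nuclear scaffold, had means of 81.2, 106, 81.7, 127 and 153, against 390 in culture. In these last 3 genes each mouse lay below the culture, and after centring the log2 differences were −0.71 ± 0.84, −0.93 ± 0.84 and −0.51 ± 0.78 (SE).

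HNRNPM was named because the study used an antibody to its protein as a nuclear marker. hnRNP M binds GU-rich RNA and regulates exons of genes such as CD44. Its transcript was detected in 36 of 37 CTCs and in 6 of 6 cultured cells, and library 5545-6 was the CTC without it. The means were 225, 65.0, 115, 77.3 and 460 in mice 5541, 5542, 5545, 5546 and 5549, and cultured cells ran from 406 to 719 (median 465). Mouse 5549 reached the range of the cultured cells, 35 CTCs lay below every cultured cell and 2 above every one. The mean of mouse 5549 was 333 without library 5549-6, its highest cell. The log2 difference was −1.82 ± 0.98 (SE, limma adjusted p = 0.476), and −0.47 ± 1.05 after centring.

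**Figure D5:**
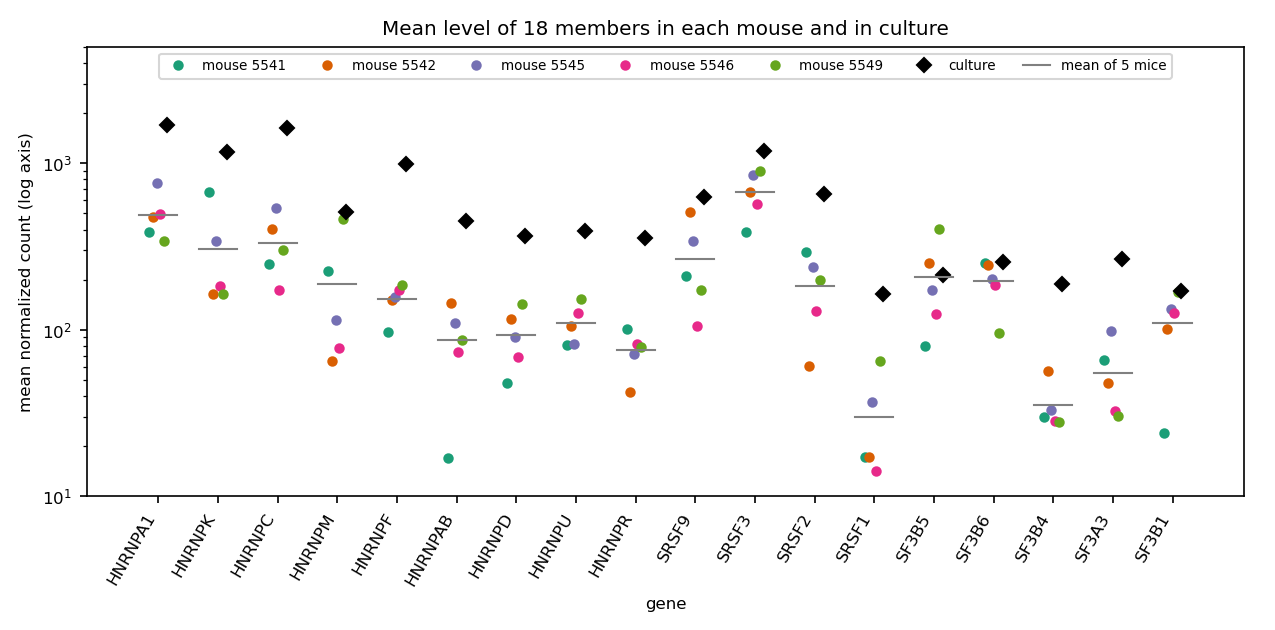
Mean normalized count (log axis) of 18 members in each of the 5 mice (colored points) and in culture (black diamonds), with the mean of mice as a grey line. The culture lies above all 5 mice for 17 of the genes, and mice 5542 and 5549 lie above it for SF3B5. Genes named by the 2-fold rule lie below the culture in every mouse by that choice. On this scale the median gene of each mouse was also below the culture, and no share over all genes is given.

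Among the SR genes, SRSF3 had the highest counts. Its means were 389, 668, 856, 571 and 901 in the mice, and 831 to 1763 in cultured cells (median 1120). On the log2 scale the difference was −0.88 ± 0.62 (SE, limma adjusted p = 0.487), less than that of the median gene, and 0.47 ± 0.60 after centring. Of the CTCs, 27 of 37 lay below every cultured cell and 2 above. SRSF9 had means of 211, 510, 341, 105 and 173, and 625.2 in culture. Its log2 difference, −1.43 ± 0.83 (SE), was that of the median gene.

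SRSF1 and SRSF2 were lower in every mouse on the authors' scale, as was the median gene. SRSF1, the founding SR protein and a known oncoprotein in breast cells, had means of 17.1, 17.1, 36.8, 14.1 and 65.3 in the mice and 69.0 to 266 in cultured cells (median 178). Mouse 5549 was the highest, and 33 of 37 CTCs lay below every cultured cell. On the log2 scale the difference was −2.65 ± 1.09 (SE), and −1.29 ± 1.10 after centring. For SRSF1, 28.0% of its 75-base words occur in another gene. SRSF2, which binds both guanine- and cytosine-rich enhancers, had means of 293, 60.8, 239, 129 and 200, against 657 in culture. Its log2 difference was −2.02 ± 0.86 (SE), and −0.66 ± 0.89 after centring, and 27.7% of its exonic bases overlap MFSD11.

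SRSF5 had the highest difference of the members after centring. It was named after its values were seen. Its means were 121, 157, 80.0, 255 and 106 in the mice, and cultured cells ran from 10.9 to 187 (median 139). The means of 3 mice lay above the culture mean of 116 and those of 2 below it, and 17 of 37 CTCs lay above every cultured cell. Most of these CTCs were from mouse 5546, which supplied 17 of the 37. On the log2 scale the difference was 0.20 ± 0.83 (SE, limma adjusted p = 0.895), the only one above 0 among the 38 members on this scale, and 1.55 ± 0.82 after centring. SRSF6 varied most among the SR genes, with means of 160, 15.9, 118, 204 and 22 in the mice, 12.8-fold from lowest to highest. In library 5546-s5 it reached 1331, and the mean of mouse 5546 without that cell was 133.

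SF3B5 and SF3B6 had the smallest log2 differences of the SF3 genes tested. SF3B5 had means of 79.6, 250.3, 172, 125 and 404 in the mice, and 138 to 298 in cultured cells (median 189). Mice 5542 and 5549 lay above the culture mean of 213 and the others below it. In library 5549-2 SF3B5 reached 1330 and made up 84.8% of the SF3 counts of that cell, and without this cell the mean of mouse 5549 was 95.7. SF3B6 had means of 253, 246, 203, 186 and 95.5, and 257 in culture, and 14 of 37 CTCs lay below every cultured cell. The log2 differences were −0.26 ± 0.88 (SE, limma adjusted p = 0.862) for SF3B5 and −0.46 ± 0.76 (adjusted p = 0.719) for SF3B6. After centring they were 1.09 ± 0.88 and 0.89 ± 0.74.

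SF3B4 and SF3A3 were lower in all 5 mice on the authors' scale, as was the median gene. SF3B4, which bridges SF3B to the pre-mRNA near the branch point, had means of 30.0, 56.6, 33.1, 28.4 and 27.9, and 131 to 269 in cultured cells (median 170). On that scale all 37 CTCs lay below every cultured cell. On the log2 scale the difference was −2.44 ± 0.93 (SE), and −1.09 ± 0.91 after centring. SF3A3, a subunit of SF3A, had means of 66.1, 48.0, 98.1, 32.5 and 30.5, and 266 in culture, with 33 of 37 CTCs below every cultured cell. Its log2 difference was −2.39 ± 0.93 (SE), and −1.03 ± 0.91 after centring. SF3B1, the scaffold of the complex and its most often mutated gene in cancer, had means of 23.9, 101, 133, 126 and 169, and 4.10 to 342 in cultured cells (median 182). The mice lay within the range of the cultured cells, and the log2 difference was −0.86 ± 1.01 (SE, limma adjusted p = 0.615), and 0.49 ± 0.98 after centring.

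The promoters of most SF3 genes held the same short motif. RefSeq promoters (GRCh38.p14) were matched by symbol for 40 of the 45 members, 8 of them SF3 genes, with 1 start per gene. CCGGAAG, the core bound by ETS factors, was searched on both strands in the 250 bases before the start. It occurred in 6 of 8 SF3, 2 of 10 SR and 3 of 22 hnRNP promoters, and in 8.82% of 27305 promoters and 12.0% of 15345 promoters of protein-coding genes. The motif was searched after the members were chosen, and a match is only a run of letters. The 30 bases around the first match are shown for the 6 SF3 genes, on the strand of the gene, with the motif or its reverse complement in capitals. The windows lie at chr22:30356926-30356955 (SF3A1, minus strand), chr19:2236794-2236823 (SF3A2, plus), chr1:37990073-37990102 (SF3A3, minus), chr11:66052299-66052328 (SF3B2, plus), chr1:149927812-149927841 (SF3B4, minus) and chr2:24076468-24076497 (SF3B6, minus).
SF3A1: gaggggacggtcCCGGAAGtgcgccagtcg
SF3A2: agagggcccgtctcatttgccCCGGAAGtg
SF3A3: agtcccggggcaCTTCCGGcactcgcggaa
SF3B2: catacggcgccaCCGGAAGttccggcaagt
SF3B4: tccgtcttcgccCCGGAAGtggaagtcgtg
SF3B6: acggtacagagcCCGGAAGtgtcttggact
The genes with the motif did not move alike: SF3B6 lay above the median gene in all 5 mice, and SF3B4 and SF3A3 below it in all 5. The CCAAT box, CCAAT on either strand, occurred in 16 of 22 hnRNP, 2 of 10 SR and 1 of 8 SF3 promoters, and in 33.04% of all promoters and 34.8% of those of protein-coding genes. The 16 include HNRNPUL2 and HNRNPUL2-BSCL2, whose genes start close together, at 62727457 and 62727384 on the minus strand of chromosome 11. They also include the related genes HNRNPCL1 and HNRNPCL2, so the 16 are not all independent. The CCAAT box was present before HNRNPC, HNRNPF, HNRNPAB and HNRNPR, and no match was found before HNRNPK or HNRNPM in this window. HNRNPA1 was not among the genes with the box. HNRNPA3 was among them, and its log2 difference was 0.53 ± 1.24 (SE) after centring. A relation of the box to the level of the gene was not tested. Of the other motifs searched, the GC box GGGCGG occurred in 25 of the 40 promoters, against 56.7% of the promoters of protein-coding genes. The NRF1 motif occurred in 6 (7.70% of those promoters), the E-box CACGTG in 7 (7.85%), the TATA box TATAAA in 5 (9.23%) and the CRE TGACGTCA in 0 (2.36%).

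The means of members differed between mice, and no such range over all genes is given here. From the lowest to the highest mouse mean, the 38 members above the filter differed by a median of 3.501-fold, from 1.89-fold for HNRNPU to 14.6-fold for SF3B3. Mice 5541, 5542 and 5549 rest on 2 to 4 CTCs each. Across the 37 CTCs, the 703 pairs of these members had a median Spearman's rho of 0.18, against 0.11 for pairs of all genes tested. The pairs of highest rho were HNRNPK with SRSF6 (0.69), SF3A3 with SRSF9 (0.62) and SRSF9 with HNRNPC (0.61). These cells share library depth and mouse, so the values are descriptions.

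The other parts of the spliceosome were compared in the same way. In 8 lists of 131 genes, of U1, U2, Sm, U5 and tri-snRNP proteins, the Prp19 complex, SR protein kinases, SR-related proteins and other sequence-specific regulators, 113 genes were tested, and limma called 0 in either direction. By the 2-fold rule 29 of the 113 were lower, 25.7% against 22.1% of all genes, and 0 higher. After centring 3 were lower and 0 higher, against 2.16% of all genes lower and 2.07% higher. Relative to the median gene, the lists had medians from −0.43 for the 16 U5 and tri-snRNP genes tested to 0.38 for the 7 Sm genes tested. The list of U2 snRNP partners of SF3, with 13 genes tested, had a median of −0.05. The 30 other hnRNP-related and sequence-specific regulators tested had 0.18, on the other side of the median gene from the hnRNP members at −0.42. The 13 other SR-related proteins tested had 0.09, and the SR members −0.05.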

How the data were processed

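SMARTseq2 libraries of 37 CTCs and 6 cultured LM2 cells were analysed. The deposited signal is the read count of a gene divided by the DESeq2 size factor of the cell. Per the submitters' processing notes and the study's methods, STAR 2.7.10a aligned reads to GRCh38 with GENCODE 38, only unique alignments were kept, strand was ignored and DESeq2 was version 1.42.1. There are no molecular identifiers. Of 47 labelled libraries, 4 had no column and were not analysed here. No column of values was left unused.

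Division by the value of 1 read gave whole reads for 100% of values (tolerance 0.001), which were used for depth, shares and thinning. Of 25739 gene rows, 25684 matched GENCODE 44, after the prefixes of 25 mitochondrial and 94 ribosomal protein rows were removed. Mitochondrial rows had no length and were left out of levels per length. The mouse was read from the library name. The labels give 1 batch date for all libraries, and p-values measure only the spread between these samples.

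Mouse means were compared with the culture mean by limma 3.58.1 (trend, log2(mean + 1), mean of at least 8 over the 6 samples). The lone culture was assumed to vary like the mice. The count test was edgeR 4.0.16 on recovered reads summed per mouse. It called 0 of 7588 genes, with 178 at an unadjusted p under 0.05. Shares were tested by exact permutation (scipy 1.17.1). Steps were tested on simulated data. R was 4.3.3 and Python 3.11.15. Alternatives were other pseudocounts, filters, folds, scalings and averages, and leaving out libraries.

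The members and lists were chosen with earlier results of these data known. Genes were named when they passed the test or the 2-fold rule (at most 10 of smallest p), stood among the 3 highest per length in their family, or were HNRNPM or SF3B1. Genes named for detection or order were chosen after their values were seen. Some sequences are not reported here.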

Additional observations from a re-analysis of the deposited data

Results flagged for a closer look

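In groups of 4 to 10 samples or cells, the highest or lowest value was compared with its nearest neighbour by Dixon's ratio. Of 42 groups, 3 were marked, and chance marks about 1 group in 20. Library 5545-6 held 14 members, and the next lowest of the 10 CTCs of mouse 5545 held 38. Without it, the mean share of all members in mouse 5545 was 0.746% in place of 0.691%. In library 5549-2 the SF3 genes took 0.222% of the reads, and the next highest of the 4 CTCs of mouse 5549 had 0.0743%. Without that cell, the mean SF3 share of mouse 5549 was 0.0711%, below the culture, in place of 0.109%. Mouse 5542 had a mean normalized count of 56.6 for SF3B4, and the next highest mouse had 33.1.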

How the results depend on the processing

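The limma count of 0 members was also 0 under the other pseudocounts, scalings, averages and weights, under edgeR and without any 1 mouse or cultured cell. The exception was the limma fit to all rows without a filter, which called 2 of 45 members. It called 1801 of 25739 genes, 1800 of them lower in CTCs. The 2 members were HNRNPF (adjusted p = 0.0202) and HNRNPUL2-BSCL2, which was detected in 2 cultured cells and 0 CTCs. Members past the 2-fold rule numbered 13, and were 4 with CPM, 0 after centring on the median gene (an alternative chosen after seeing the data), 22 at 1.5-fold, 1 at 4-fold, and 12 to 18 without any 1 mouse or cultured cell. Of all 7588 genes tested, 1699 met the rule in either direction. The number was 584 with CPM, 321 after centring, 2771 at 1.5-fold and 294 at 4-fold. Without any 1 mouse or cultured cell it ran from 1411 of 7513 genes to 2123 of 7703. The median number of members detected was 39, and was 33 when a member had to reach a normalized count of 8. The difference in share ranged from −0.542 to −0.474 percentage points for all members when 1 mouse or cultured cell was left out.

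Of 378 alternative values for the 18 named genes, 17 changed sign, in 5 genes, and none passed the test (lowest adjusted p 0.0607). These values leave out the fit without a filter, in which HNRNPF passed. The log2 difference became positive with CPM for SF3B5 (0.51) and SF3B6 (0.30), and ranged from −0.56 to 0.0228 for SF3B5 when 1 mouse or cultured cell was left out, positive without mouse 5541. Under edgeR with TMM and with median-of-ratios scaling it was 1.36 and 1.37 for SF3B5, 0.95 and 0.94 for SF3B6, 0.15 and 0.14 for SRSF9, 0.32 and 0.31 for SRSF3, and 0.58 and 0.56 for SF3B1. After centring it was 1.09 for SF3B5, 0.89 for SF3B6, 0.47 for SRSF3 and 0.49 for SF3B1. These scalings shift all genes. No paired analysis was possible because the numbers in the library names only name cells. At this depth 7 members had means under 8 and were not tested.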
